A study of Mus musculus with 12 samples.

Results

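The cytochrome P450 genes of mouse dorsal skin were read across 4 groups of BALB/c mice. They were taken as every gene whose name begins with Cyp and a digit, without Cyp51, the sterol demethylase of cholesterol synthesis. The rule found 104 of the 36400 genes in the table, 14 of them pseudogenes. By family number, 66 belong to families known mainly for foreign compounds, 20 to fatty acid families, 14 to steroid, bile acid and vitamin D families, 3 to the retinoid family 26, and 1, Cyp20a1, is an orphan. These role names follow the families and are approximate, since several members of the foreign-compound families also act on lipids.

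All mice were female, 6 weeks old when purchased, and all had their backs clipped and treated with hair removal cream. Solvent mice received acetone and olive oil on the skin. DNCB mice were sensitized with 1% 1-chloro-2,4-dinitrobenzene, a contact allergen, and challenged with 0.5%, which gives a dermatitis resembling atopic dermatitis. In the scMSC group, DNCB-treated mice also received 4 subcutaneous injections of 100 µL, each with 2000000 human umbilical cord mesenchymal stem cells (MSCs). For scivMSC mice the same dose was given 50 µL subcutaneously and 50 µL by tail vein. Each group had 3 libraries of whole dorsal skin from day 30. Below, a library is also called a mouse, although the labels do not say whether each came from 1 mouse. The model is a chemical one, the injected cells were human, and a group with DNCB and injections free of cells is not among the 4.

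Cytochrome P450 enzymes are haem proteins that insert an oxygen atom into their substrates, with electrons passed on by P450 reductase in the endoplasmic reticulum or by ferredoxin in mitochondria. In skin they clear pollutants and drugs, degrade retinoic acid, activate and inactivate vitamin D, and make the hydroxylated fatty acids and epoxides used by the water barrier and by inflammatory signalling. Cyp1 genes are the classical targets of the aryl hydrocarbon receptor, a ligand-activated transcription factor. Sebaceous glands, hair follicles, epidermis and infiltrating leukocytes each carry their own members.

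The windows upstream of 6 genes are shown because these genes had some of the largest changes and because their start regions carry, or lack, short motifs known from P450 promoters. Each window holds the 250 bases before the RefSeq start site (GRCm38.p6), 5′ to 3′ on the strand of the gene. Capitals mark GCGTG (the core of the aryl hydrocarbon receptor element), AGGTCA (a nuclear receptor half-site) and the TATA box (TATAAA), searched on both strands. None of these motifs overlaps another in the windows shown, and TGACCT is the half-site on the opposite strand.
Cyp1a1: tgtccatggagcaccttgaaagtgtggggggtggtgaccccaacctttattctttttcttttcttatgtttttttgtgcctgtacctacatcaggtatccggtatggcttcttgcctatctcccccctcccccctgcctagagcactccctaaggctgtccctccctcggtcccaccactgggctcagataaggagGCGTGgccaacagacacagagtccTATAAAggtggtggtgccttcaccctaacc
Cyp2j12: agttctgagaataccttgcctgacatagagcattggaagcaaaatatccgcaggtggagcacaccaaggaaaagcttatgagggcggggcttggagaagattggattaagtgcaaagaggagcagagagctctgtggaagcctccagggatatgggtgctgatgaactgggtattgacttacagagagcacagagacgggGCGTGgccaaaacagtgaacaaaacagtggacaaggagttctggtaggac
Cyp2b19: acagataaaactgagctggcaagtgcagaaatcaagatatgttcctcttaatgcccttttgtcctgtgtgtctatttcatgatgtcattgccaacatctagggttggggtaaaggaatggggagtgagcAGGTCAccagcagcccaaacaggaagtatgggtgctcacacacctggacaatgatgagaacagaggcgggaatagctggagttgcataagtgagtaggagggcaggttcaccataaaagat
Cyp2b23: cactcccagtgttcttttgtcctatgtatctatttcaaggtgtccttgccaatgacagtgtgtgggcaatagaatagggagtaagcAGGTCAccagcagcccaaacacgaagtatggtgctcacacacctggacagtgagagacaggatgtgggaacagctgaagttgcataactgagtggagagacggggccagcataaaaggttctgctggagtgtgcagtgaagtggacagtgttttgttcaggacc
Cyp3a57: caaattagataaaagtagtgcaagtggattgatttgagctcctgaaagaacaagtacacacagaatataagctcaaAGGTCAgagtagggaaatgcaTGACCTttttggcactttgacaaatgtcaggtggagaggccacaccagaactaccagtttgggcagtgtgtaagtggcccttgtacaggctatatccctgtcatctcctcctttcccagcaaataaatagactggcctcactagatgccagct
Cyp4f18: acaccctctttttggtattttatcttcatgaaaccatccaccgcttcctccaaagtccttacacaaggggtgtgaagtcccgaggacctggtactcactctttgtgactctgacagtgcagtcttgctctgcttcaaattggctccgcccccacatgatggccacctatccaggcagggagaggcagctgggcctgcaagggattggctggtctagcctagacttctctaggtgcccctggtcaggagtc

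The Cyp1a1 window (chr9:57697363-57697612, + strand) held the GCGTG core at -54 to -50 and a TATA box at -30 to -25, counted from the start site. The deposited span of Cyp1a1 begins upstream of this start site. In Cyp2j12 (chr4:96141153-96141402, - strand) the GCGTG core lay at -50 to -46. Cyp2b19 (chr7:26756892-26757141, + strand) and Cyp2b23 (chr7:26686431-26686680, - strand) each held 1 half-site within a shared stretch of 24 bases, agcAGGTCAccagcagcccaaaca. It lay at -124 to -101 in Cyp2b19 and at -167 to -144 in Cyp2b23. Their windows were 58.6% identical over the alignment, the highest of the 21 pairs among 7 windows aligned, the others running from 45.7% to 54.8%. Cyp3a57 (chr5:145345019-145345268, + strand) held a half-site on each strand. The Cyp4f18 window (chr8:72009627-72009876, - strand) held none of the 3 motifs. The window of Cyp2j8, which was aligned and is not shown, also held none of them.

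Over all 32841 upstream windows of this length, 28.2% held GCGTG, 14% held AGGTCA and 12.4% held TATAAA. Among the 79 windows of 70 P450 genes with an entry, the shares were 20.3%, 24.1% and 34.2%. Among the 11 P450 genes called in a comparison with DNCB that had a window, 3 held GCGTG, 3 held AGGTCA and 2 held TATAAA. A match of letters is a description of the window and not evidence of binding. Cyp17a1, Cyp2g1 and Cyp7b1 were not matched to a window.

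Levels are given as FPKM, fragments scaled to gene length and library size, which allows genes to be compared per length. Of the 104 members, 64 reached a mean of 0.1 FPKM over the 12 libraries and were tested, and 30 had a mean of at least 1 FPKM. The tested genes were 37 of the 66 foreign-compound genes, 15 of the 20 fatty acid genes, 10 of the 14 steroid genes, 1 of the 3 retinoid genes and Cyp20a1. Just inside the limit stood Cyp4f14 at 0.101 and Cyp4a12a at 0.114 FPKM, and just outside Cyp2c37 at 0.0942 and Cyp2b9 at 0.0916. The other 40 did not exceed 0.635 FPKM in any library. Of these, 12 were pseudogenes, and 22 were at or under the floor of 3 fragments, about 12 estimated counts, in every library.

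Differences are log2 fold changes ± SE from edgeR's quasi-likelihood test on estimated counts, with Benjamini-Hochberg adjusted p over 21890 genes. To be called, a gene needed an adjusted p below 0.05 together with a fold change beyond 1 on the log2 scale, up or down. Group levels are means ± SD of 3 libraries. In whole skin, fewer cells of a type and less RNA per cell cannot be told apart.

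The scivMSC group held a library that stood apart. In scivMSC replicate 3 the summed fibroblast markers were at 171 FPKM, against 917 and 1135 in the other scivMSC mice, macrophage markers at 48.6 against 350 and 447, and mast cell markers at 18.6 against 101 and 111. Their part in the results was not tested, and calls that change without this library are given beside the gene, with an exception. In scMSC relative to Solvent, 2 members were called without it, 1 of them shared with the main fit, and the added member is not named.

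In DNCB skin 9 P450 genes fell and 3 rose relative to Solvent skin. Called members thus made up 18.75% of the 64 tested, against 14.2% of all genes tested (6.59% higher, 7.57% lower). With library size as the only scaling, which shifted the median of all genes from 0.02 to 0.20, 12 members were again called, 5 higher and 7 lower, and 10 of them were among the 12 above. The median log2 fold change was -0.46 over the members and 0.02 over all genes.

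Relative to DNCB skin, 8 members were higher and 2 lower in scMSC skin, 15.62% of those tested against a background of 8.50% (4.66% higher, 3.84% lower). In scivMSC skin 8 were higher and 1 lower, 14.06% against a background of 5.46% (3.13% higher, 2.33% lower), and with library size alone 7 were higher and 2 lower, 8 of them shared. Their medians were -0.13 and 0.22, beside 0.02 over all genes in both comparisons. The 3 comparisons share the DNCB libraries, so a gene that is extreme in DNCB enters all of them. 7 genes were called in all 3: Cyp1a1, Cyp2b19, Cyp2j8, Cyp2j12, Cyp3a57 and Cyp17a1, each lowest in DNCB, and Cyp4f18, highest in DNCB.

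**Figure D1:**
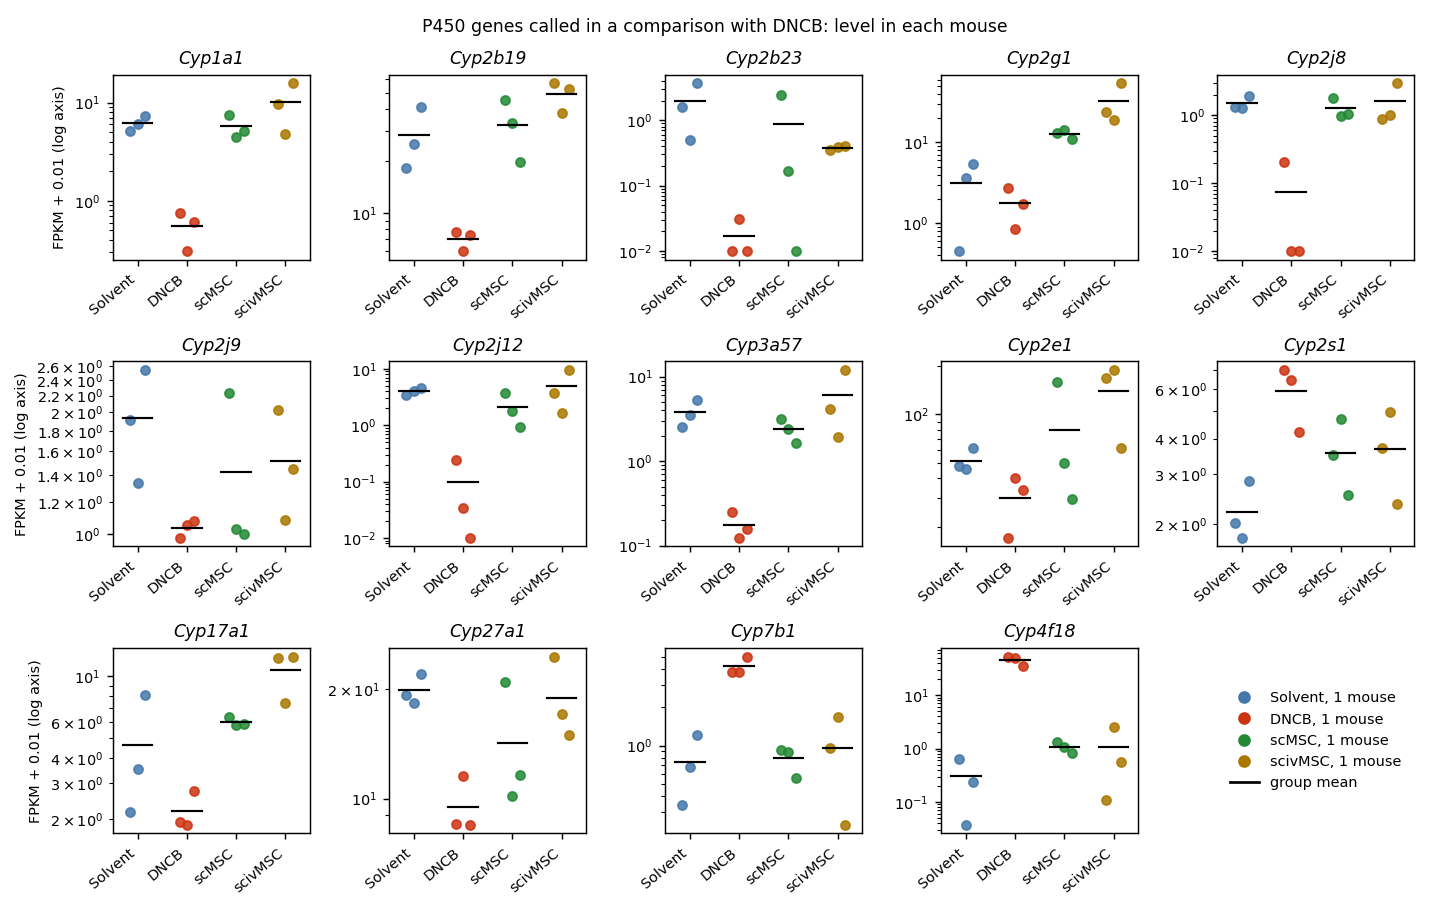
Level of the 14 P450 genes called in a comparison with DNCB, as FPKM + 0.01 on a log axis, with 1 point per library and a line at the group mean. DNCB libraries form the low group for Cyp1a1, Cyp2b19, Cyp2j12, Cyp3a57 and Cyp2j8 and the high group for Cyp4f18 and Cyp7b1.

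**Figure D2:**
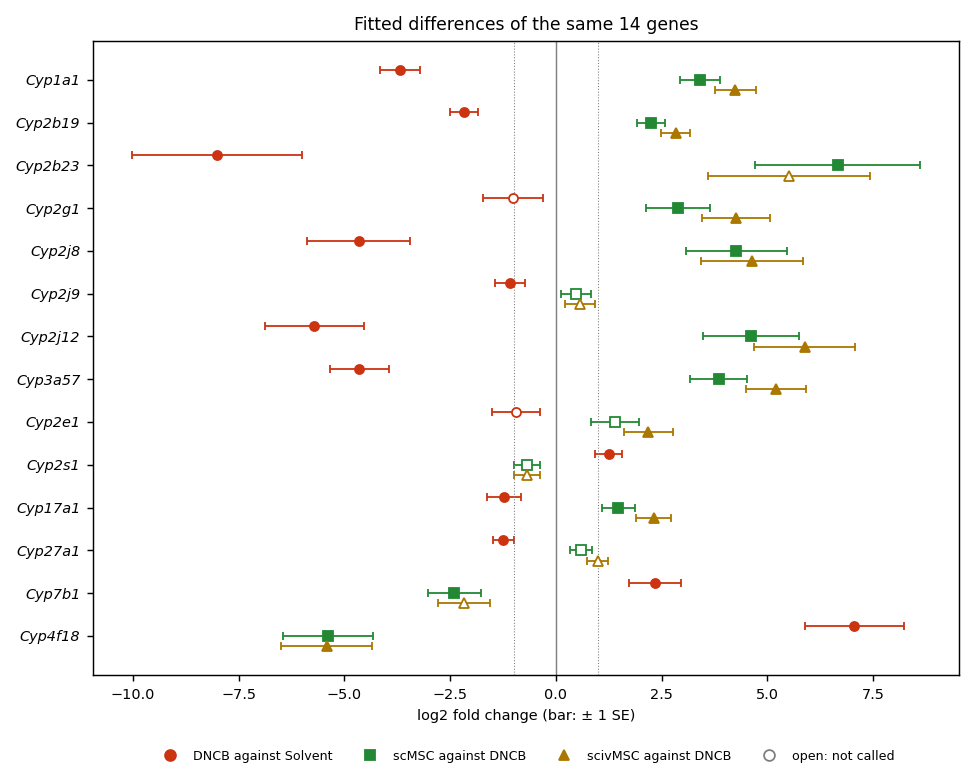
Log2 fold change with ± 1 SE of the same 14 genes in the 3 comparisons that involve DNCB, where filled symbols are called and dotted lines mark the threshold of 1. Cyp2b23, at the floor in DNCB skin so that its fitted value depends on the prior count, has the widest errors, and Cyp27a1, Cyp2j9 and Cyp2s1 are filled only against Solvent.

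Among the foreign-compound families, 7 genes fell and 1 rose in DNCB skin, and 7 were higher than DNCB in each MSC group. Called genes made up 21.62% of those tested in DNCB skin and 18.92% in each MSC group. The shares over all genes tested were 14.2%, 8.50% and 5.46%. Cyp1a1 (ENSMUSG00000032315, chromosome 9, 57687928 to 57703824), which oxidizes polycyclic aromatic hydrocarbons, stood at 5.11, 6.11 and 7.32 FPKM in Solvent mice and at 0.734, 0.297 and 0.600 in DNCB mice. It stood at 7.49, 4.49 and 5.19 in scMSC and at 9.59, 4.75 and 15.9 in scivMSC mice. Every DNCB library was below every library of the other groups. The fold change was -3.68 ± 0.47 in DNCB relative to Solvent (adjusted p = 0.000847), 3.41 ± 0.47 in scMSC relative to DNCB (adjusted p = 0.00231) and 4.24 ± 0.48 in scivMSC relative to DNCB (adjusted p = 0.00284). These calls held in every alternative fit and with each library left out.

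The other members of family 1 did not pass the test. Cyp1a2, best known from liver, had 0.455 ± 0.334 FPKM in Solvent and 0.195 ± 0.116 in DNCB skin (log2 fold change -1.42 ± 0.97, adjusted p = 0.320). Cyp1b1, which acts on aromatic hydrocarbons and oestrogens, stood at 0.575, 1.68 and 4.36 FPKM in Solvent and at 9.06, 5.77 and 16.4 in DNCB mice. All 3 DNCB values were above the Solvent values, and the difference was not called (2.08 ± 0.93, adjusted p = 0.128) except without scivMSC replicate 3 (0.0446). In the scivMSC mice it stood at 13.2, 9.62 and 0.623 FPKM, with the low value in replicate 3.

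Cyp2b19 (ENSMUSG00000066704), an arachidonic acid epoxygenase of mouse keratinocytes, was the second most abundant member in Solvent skin. Its levels were 18.2, 25.3 and 41.2 FPKM in Solvent and 7.67, 5.97 and 7.39 in DNCB mice. They were 45.1, 33.2 and 19.7 in scMSC and 57.1, 38.2 and 52.9 in scivMSC mice. The DNCB values did not overlap any other group. It fell by 2.18 ± 0.33 in DNCB (adjusted p = 0.00146) and was higher than DNCB by 2.24 ± 0.33 in scMSC (adjusted p = 0.00273) and by 2.83 ± 0.34 in scivMSC skin (adjusted p = 0.00319), in every alternative run.

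Cyp3a57 (ENSMUSG00000070419), of the subfamily that oxidizes many drugs and steroids, stood at 2.54, 3.54 and 5.25 FPKM in Solvent and at 0.239, 0.113 and 0.147 in DNCB mice. It was 3.17, 2.41 and 1.65 in scMSC and 4.15, 1.92 and 12.1 in scivMSC mice. Again no DNCB library reached another group. The fold changes were -4.64 ± 0.70, 3.85 ± 0.67 and 5.20 ± 0.71 in DNCB relative to Solvent, scMSC relative to DNCB and scivMSC relative to DNCB (adjusted p = 0.00135, 0.00501 and 0.00415), and they were called in every alternative. Cyp3a genes are close in sequence and can share reads, as can the Cyp2a, Cyp2b, Cyp2c, Cyp2d, Cyp2j and Cyp4a genes, so values of single members are uncertain.

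The Cyp2j genes, a cluster on chromosome 4 (96027534 to 96664154) that includes fatty acid epoxygenases, had 7 members, 5 of them tested. Of the tested genes, 3 fell in DNCB skin, where 7.57% of all genes tested were called lower. Cyp2j12 (ENSMUSG00000081225) stood at 3.47, 4.05 and 4.59 FPKM in Solvent mice and at 0.236, 0.0236 and 0 in DNCB mice, a fold change of -5.71 ± 1.18 (adjusted p = 0.00569). It was 3.67, 1.75 and 0.907 in scMSC mice (4.60 ± 1.13, adjusted p = 0.0230) and 3.73, 1.61 and 9.63 in scivMSC mice (5.88 ± 1.19, adjusted p = 0.0162). DNCB was the low group without overlap. Only DNCB replicate 1 lay above the floor in that group, so the sizes of these fold changes are uncertain. Across all fits the fall in DNCB ran from -8.41 to -2.21. The scMSC call was lost without DNCB replicate 2 or scMSC replicate 1 (adjusted p 0.0502 and 0.0866), and the scivMSC call without DNCB replicate 2 (0.0668). With 6 libraries fitted alone both were lost (0.0749 and 0.0564), and limma with a pseudocount of 1 did not call the first (0.0583).

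Cyp2j8 (ENSMUSG00000082932) was at 1.33, 1.25 and 1.94 FPKM in Solvent mice and was detected in 1 of 3 DNCB mice, at 0.196 FPKM. In scMSC mice it was at 1.81, 0.955 and 1.04, and in scivMSC mice at 0.877, 1.01 and 2.98. All 9 of these values lay above the DNCB values. The fold changes were -4.66 ± 1.21 in DNCB relative to Solvent (adjusted p = 0.0172), 4.26 ± 1.19 in scMSC (0.0402) and 4.63 ± 1.21 in scivMSC relative to DNCB (0.0409). Their sizes are uncertain, since only DNCB replicate 1 lay above the floor in that group. Across all fits the fall in DNCB ran from -10.6 to -1.23. The scMSC call was lost when any of 9 libraries was left out (adjusted p 0.0516 to 0.0931; it held without DNCB replicate 1 and without scivMSC replicates 2 and 3). The scivMSC call was lost without any of 10 libraries (0.0509 to 0.119; it held without DNCB replicate 1 and scivMSC replicate 2). With 6 libraries fitted alone none of the 3 Cyp2j8 differences was called (0.0512, 0.122 and 0.127).

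Cyp2j9 (ENSMUSG00000015224) changed least of the 3, from 1.91, 1.33 and 2.54 FPKM in Solvent to 0.967, 1.04 and 1.07 in DNCB mice. The groups did not overlap, and the fold change was -1.08 ± 0.35 (adjusted p = 0.0458). The call was lost without Solvent replicate 1 or 3 or any single DNCB library (adjusted p 0.0914 to 0.123). It was also lost with library size alone (0.0938), without the filter (0.0599) and by limma with each pseudocount (0.101 to 0.105). Neither MSC group was called against DNCB (0.47 ± 0.35 in scMSC, adjusted p = 0.462, and 0.56 ± 0.35 in scivMSC, adjusted p = 0.384).

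A second cluster lies on chromosome 7 between 25802475 and 27158668 and holds 16 members of the Cyp2a, Cyp2b, Cyp2f, Cyp2g, Cyp2s and Cyp2t subfamilies, 10 of them tested. Neighbours in it went different ways. Cyp2b19 and Cyp2b23 fell in DNCB skin, Cyp2s1 rose, and Cyp2g1 was called only in comparisons of MSC groups. Cyp2b10, the gene known for induction by the receptor CAR, was not called and stood at 10.01 ± 1.92 FPKM in Solvent, 12.1 ± 1.8 in DNCB, 9.14 ± 4.11 in scMSC and 16.3 ± 2.5 in scivMSC skin. Cyp2f2, known from the airway, was also not called, at 18.4 ± 1.7, 11.3 ± 4.0, 18.2 ± 11.1 and 23.3 ± 2.0 FPKM in the same order, although its difference of scivMSC from DNCB (1.06 ± 0.36, adjusted p = 0.103) was called without scMSC replicate 1 or 3 (adjusted p 0.0329 and 0.0399), by DESeq2 (0.0389) and in the 6 libraries fitted alone (0.0494).

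Cyp2b23 (ENSMUSG00000040650) varied widely among mice outside the DNCB group. It stood at 1.61, 0.483 and 3.71 FPKM in Solvent, 2.41, 0.159 and 0 in scMSC and 0.342, 0.377 and 0.400 in scivMSC mice. In DNCB mice about 1 fragment was found in 3 libraries, at the floor, against 226 in Solvent mice, a ratio of 249 with a 95% counting interval of 44.3 to 9879. The fall in DNCB was called (adjusted p = 0.0145), though not without DNCB replicate 1 or 3 (adjusted p 0.0564 and 0.0570). The scMSC and DNCB values overlapped. The scMSC group held 116 fragments, a ratio to DNCB of 114 with an interval of 20.03 to 4533, most of them from replicate 1. That call (adjusted p = 0.0469) was lost when any library but scMSC replicate 3 was left out (0.0540 to 0.210). It was lost in 7 of 10 other settings too, among them limma with each pseudocount (0.202 to 0.422). The scivMSC group held 48 fragments, and its difference from DNCB was not called (adjusted p = 0.108). It was called without scMSC replicate 1 or 3 (adjusted p 0.0482 and 0.0365), by DESeq2 (0.0282) and in the 6 libraries fitted alone (0.0436).

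Cyp2g1 (ENSMUSG00000049685), known from olfactory mucosa, stood at 0.439, 3.64 and 5.42 FPKM in Solvent and at 2.73, 0.847 and 1.70 in DNCB mice, which overlapped (-1.02 ± 0.72, adjusted p = 0.340). In scMSC mice it was 13.1, 14.3 and 10.9, and in scivMSC mice 24, 19.2 and 54.8. Every MSC-treated mouse was above every Solvent and DNCB mouse. Relative to DNCB it was higher by 2.89 ± 0.76 in scMSC (adjusted p = 0.0303) and by 4.25 ± 0.80 in scivMSC skin (adjusted p = 0.0126), and relative to Solvent it was higher by 3.24 ± 0.77 in scivMSC skin (adjusted p = 0.0202). The scMSC call was lost without any single DNCB or scMSC library (adjusted p 0.0504 to 0.110). The scivMSC calls were lost without DNCB replicate 2 or 3 (0.0511 and 0.0550) and, against Solvent, without Solvent replicate 2 (0.0555) or with 6 libraries fitted alone (0.0792).

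Cyp2e1 (ENSMUSG00000025479), the ethanol-inducible P450, was the most abundant member in Solvent, scMSC and scivMSC skin, where it made up 20.5%, 28.1% and 32.4% of the summed P450 FPKM. It stood at 47.3, 45.7 and 61.5 FPKM in Solvent and at 17, 39.8 and 34 in DNCB mice. Levels in scMSC mice were 159, 49.6 and 29.8, and in scivMSC mice 167, 189 and 61.8. The scMSC values overlapped both Solvent and DNCB values, while the scivMSC values were all above DNCB. It was higher in scivMSC than in DNCB skin by 2.19 ± 0.58 (adjusted p = 0.0444), a call lost without any single Solvent or DNCB library, scMSC replicate 2 or scivMSC replicate 1 or 2 (adjusted p 0.0545 to 0.149). Library size alone (0.0552) and limma with a pseudocount of 0.01 (0.0539) did not call it either. The differences of DNCB from Solvent (-0.94 ± 0.56, adjusted p = 0.255) and of scMSC from DNCB (1.39 ± 0.57, adjusted p = 0.151) were not called.

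Cyp2s1 (ENSMUSG00000040703), an epithelial P450 that dioxin can induce, was the foreign-compound member that rose. It stood at 2.00, 1.77 and 2.83 FPKM in Solvent and at 6.99, 6.45 and 4.20 in DNCB mice, without overlap (1.24 ± 0.32, adjusted p = 0.0157). The MSC groups had means between these, at 3.56 ± 1.08 and 3.67 ± 1.31 FPKM, and neither was called against DNCB (adjusted p = 0.199 and 0.223). The rise was not called without Solvent replicate 1 or 2 or DNCB replicate 1 (adjusted p 0.0575 to 0.0723). Cyp2s1 overlaps Gm45226 and Gm26707 on the opposite strand, and whether counting used strand is not given in the sources used here.

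Cyp1a1 and Cyp2s1 can be set beside the list of 16 aryl hydrocarbon receptor genes and targets. Of these, 2 rose and 1 fell in DNCB skin, 1 was higher and 4 lower than DNCB in scMSC skin, and 1 was higher and 2 lower in scivMSC skin, beside 14.2%, 8.50% and 5.46% of all genes called. The median log2 fold changes of the list were 0.08, -0.49 and -0.21. The first count, 3 of 16, is close to the background. Aldh3a1, an aldehyde dehydrogenase and target of the receptor, moved like Cyp1a1, with 18 ± 3 FPKM in Solvent, 4.31 ± 1.72 in DNCB, 10.5 ± 3.6 in scMSC and 15.9 ± 5.3 in scivMSC skin (-2.25 ± 0.35 in DNCB relative to Solvent, adjusted p = 0.00152). Tiparp, another target, went the other way, with 5.73 ± 1.67 FPKM in Solvent and 15.8 ± 2.4 in DNCB skin (1.29 ± 0.25, adjusted p = 0.00406). Gsta1, a glutathione transferase, also rose in DNCB (1.35 ± 0.32, adjusted p = 0.0104). Nfe2l2, the NRF2 factor of the oxidative stress response, was lower in scMSC than in DNCB skin (-1.17 ± 0.16, adjusted p = 0.00220). The quinone reductase Nqo1 was lower there too (-1.09 ± 0.23, adjusted p = 0.0115). The receptor itself, Ahr, stood at 5.55 ± 0.90 FPKM in Solvent and 5.22 ± 0.81 in DNCB skin (-0.27 ± 0.20, adjusted p = 0.374), its partner Arnt at 4.05 ± 0.87 and 5.14 ± 0.19 (adjusted p = 0.598), and its repressor Ahrr at 0.269 ± 0.115 and 0.241 ± 0.048 (adjusted p = 0.688).

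Sebaceous gland markers moved with the genes that were low in DNCB. Of the 14 tested, 10 fell in DNCB skin, 10 were higher than DNCB in scMSC and 9 in scivMSC skin. Their summed level ran from 893 to 1098 FPKM in Solvent, 356 to 405 in DNCB, 640 to 1042 in scMSC and 820 to 1444 in scivMSC mice. Awat1, a wax synthase of the gland, stood at 25.5 ± 3.0 FPKM in Solvent and 1.28 ± 0.83 in DNCB skin, and Mc5r, its melanocortin receptor, at 5.48 ± 1.44 and 1.12 ± 0.22. Among 10 suprabasal keratinocyte markers, 4 fell in DNCB, and 2 were higher than DNCB in each MSC group. Their sum overlapped between groups (4864 to 11670 FPKM in Solvent, 6420 to 10510 in DNCB). The sum of hair shaft and inner root sheath markers ran from 11.1 to 364 FPKM in Solvent, 310.3 to 974.5 in DNCB, 7145 to 20210 in scMSC and 2662 to 6531 in scivMSC mice. Of 9 adipocyte markers, 5 fell in DNCB, 1 was higher than DNCB in scMSC skin, and 3 were higher and 1 lower in scivMSC skin. Their sum ran from 1780 to 2870 FPKM in Solvent, 544 to 888 in DNCB, 963 to 1604 in scMSC and 1328 to 1587 in scivMSC mice. Of 8 skeletal muscle markers, 7 fell in DNCB, and their sum ran from 15950 to 22770 FPKM in Solvent and from 4315 to 6024 in DNCB mice. As background to these counts, 14.2% of all genes tested were called in DNCB relative to Solvent. The shares were 8.50% in scMSC and 5.46% in scivMSC relative to DNCB. The part of these cell types in the P450 results was not tested.

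The steroid, bile acid and vitamin D families had 3 calls among 10 tested genes in DNCB relative to Solvent, 30% against 14.2% of all genes tested. Of these, Cyp17a1 and Cyp27a1 fell and Cyp7b1 rose. Cyp17a1 (ENSMUSG00000003555), the hydroxylase and lyase required for androgen synthesis, stood at 2.16, 3.5 and 8.13 FPKM in Solvent and at 1.93, 1.87 and 2.75 in DNCB mice. These groups overlapped, and the call (-1.23 ± 0.40, adjusted p = 0.0425) was lost in 7 of 12 fits that left out 1 library (adjusted p 0.0548 to 0.147): Solvent replicate 3, any DNCB library, scMSC replicate 1 or 3, or scivMSC replicate 1. It was also lost in 5 of 11 other settings: library size alone (0.0731), limma with each pseudocount (0.127 to 0.145) and 6 libraries fitted alone (0.0885). Among scMSC mice it was 6.36, 5.80 and 5.84, and in scivMSC mice 12.3, 7.43 and 12.5, all above DNCB. The differences from DNCB were 1.48 ± 0.40 in scMSC (adjusted p = 0.0337, lost without any single DNCB or scMSC library at 0.0582 to 0.117) and 2.31 ± 0.41 in scivMSC skin (adjusted p = 0.00963, kept in every alternative).

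Cyp27a1 (ENSMUSG00000026170), the mitochondrial sterol hydroxylase, stood at 19.2, 18.3 and 22.0 FPKM in Solvent and at 8.52, 11.5 and 8.47 in DNCB mice. The groups were apart, and the fall of 1.24 ± 0.25 on the log2 scale (adjusted p = 0.00544) kept its call with each library left out and lost it by limma with a pseudocount of 1. It was 14.2 ± 5.8 in scMSC (adjusted p = 0.167 relative to DNCB) and 18.8 ± 5.0 in scivMSC skin, where the difference of 0.99 ± 0.25 passed the adjusted p (0.0376) and not the fold threshold, which it passed without scivMSC replicate 2 (adjusted p = 0.0447). Cyp39a1, an oxysterol hydroxylase, likewise passed the adjusted p (0.00797) with -0.96 ± 0.21 in DNCB, from 5.62 ± 0.84 to 3.28 ± 0.31 FPKM, and missed the fold threshold. It passed both without Solvent replicate 1 or 3 or DNCB replicate 1 (adjusted p 0.0110 to 0.0212).

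Cyp7b1 (ENSMUSG00000039519), which hydroxylates oxysterols, was the steroid family member that rose. It stood at 0.331, 0.665 and 1.21 FPKM in Solvent and at 3.81, 3.80 and 5.04 in DNCB mice. In scMSC mice it was 0.915, 0.884 and 0.542, and in scivMSC mice 0.940, 1.68 and 0.226. DNCB was above all other libraries. The rise was 2.35 ± 0.62 (adjusted p = 0.0183; lost without Solvent replicate 1 or 2 or DNCB replicate 3 at 0.0529 to 0.0722). It was lower in scMSC than in DNCB skin by -2.40 ± 0.62 (adjusted p = 0.0287; lost without any single DNCB or scMSC library at 0.0614 to 0.0974), and the scivMSC difference of -2.17 ± 0.61 missed the threshold (adjusted p = 0.0555). That difference was called without scivMSC replicate 2 (0.0286) and in 6 of 11 other settings, namely DESeq2 (0.00315), limma with each of 3 pseudocounts (0.00705 to 0.0407), counts divided by 4 (0.0348) and a mean of at least 1 FPKM (0.0422).

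The vitamin D enzymes Cyp27b1 and Cyp24a1 were low. Cyp27b1, which makes the active hormone, stood at 0.172, 1.2 and 0.329 FPKM in Solvent, 0.262, 0.0314 and 0.246 in DNCB, 0.661 ± 0.418 in scMSC and 0.843 ± 0.198 in scivMSC mice, and was not called by edgeR (DNCB relative to Solvent -1.85 ± 0.83, adjusted p = 0.129). DESeq2 called its difference of scivMSC from DNCB (adjusted p = 0.0396, against 0.137 by edgeR). Cyp24a1, which inactivates the hormone, was listed at 0 in 9 libraries and did not exceed 0.0780 FPKM in the other 3. Of 8 tested genes of the vitamin D list, 1 rose in DNCB skin, and 1 was higher and 1 lower than DNCB in each MSC group. Over all genes tested 14.2%, 8.50% and 5.46% were called in these comparisons, and the first count is close to that background. The gene that rose was Spp1, osteopontin, from 3.95 ± 0.58 to 153 ± 40 FPKM. It was lower in both MSC groups, at 4.41 ± 2.93 and 4.59 ± 3.01. Trpv6, a calcium channel, was higher than DNCB in both MSC groups (1.53 ± 0.27, adjusted p = 0.00497, and 1.27 ± 0.26, adjusted p = 0.0183). The receptor Vdr stood at 13.2 ± 1.0, 19.8 ± 2.4, 30.4 ± 3.5 and 28.0 ± 1.5 FPKM in Solvent, DNCB, scMSC and scivMSC skin and was called in scMSC relative to Solvent (1.05 ± 0.14, adjusted p = 0.00140).

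Of 26 tested genes of the steroid and oxysterol list, 2 fell in DNCB, the only calls of the list there. Over all genes tested 14.2% were called (7.57% lower), so the list did not stand out. The list was drawn up with 1 gene in error, a cytokine subunit, which is counted among the 26 and was not called. Hsd3b6, a hydroxysteroid dehydrogenase, fell from 10.8 ± 2.8 to 0.574 ± 0.327 FPKM (-4.39 ± 0.56, adjusted p = 0.000802), and was at 7.23 ± 2.32 in scMSC and 14.1 ± 9.2 in scivMSC skin. In scMSC skin 2 genes were higher and 1 lower than DNCB, and in scivMSC skin 1 and 1. These counts are close to the background of 8.50% and 5.46% of all genes. Srd5a2, the reductase that makes dihydrotestosterone, was among the higher ones, listed at 0 in all Solvent and DNCB libraries and at 0.617 ± 0.567 FPKM in scMSC skin. Akr1c18, which inactivates progesterone, was the lower one in both (-2.07 ± 0.42, adjusted p = 0.010, and -1.96 ± 0.42, adjusted p = 0.0207).

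The retinoid family 26 degrades retinoic acid. Cyp26b1 (ENSMUSG00000063415) was the only tested member and one of the 5 most abundant P450 genes in Solvent and DNCB skin. It stood at 24.5, 13.7 and 14.8 FPKM in Solvent, 16.7, 16.2 and 13.1 in DNCB, 17.7, 9.74 and 10.8 in scMSC and 16.4, 17.7 and 14.1 in scivMSC mice. The groups overlapped throughout. Its differences were -0.39 ± 0.25 in DNCB relative to Solvent (adjusted p = 0.285), -0.25 ± 0.25 in scMSC (adjusted p = 0.603) and 0.07 ± 0.25 in scivMSC relative to DNCB (adjusted p = 0.912). Cyp26a1 did not exceed 0.214 FPKM and Cyp26c1 0.202 in any library, close to the floor, and no direction can be read from them.

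Genes around the family did change. Of 25 retinoid genes, 6 rose and 5 fell in DNCB skin, 4 were higher and 3 lower than DNCB in scMSC skin, and 3 and 3 in scivMSC skin. Of all genes tested, 14.2%, 8.50% and 5.46% were called in these 3 comparisons. Lrat, which stores retinol as esters, rose from 0.338 ± 0.156 to 2.67 ± 0.35 FPKM in DNCB (2.79 ± 0.39, adjusted p = 0.00113) and was at 2.19 ± 0.78 and 2.36 ± 0.39 in the MSC groups. Stra6, the cellular receptor for retinol-binding protein, was at 0.139 ± 0.035 in Solvent, 0.570 ± 0.117 in DNCB, 6.26 ± 2.06 in scMSC and 2.24 ± 0.69 in scivMSC skin and was called in all 3 comparisons with DNCB. The binding proteins Crabp1 (9.60 ± 2.09 to 80.6 ± 11.3 FPKM) and Fabp5 (82.2 ± 19.9 to 594 ± 91) rose in DNCB and were lower in both MSC groups. Rdh1, a retinol dehydrogenase, fell from 15.95 ± 2.25 to 2.51 ± 0.97 FPKM, and Rarres1, a retinoic acid-responsive gene, fell from 105 ± 25 to 8.65 ± 1.65. Both were higher than DNCB in each MSC group.

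The fatty acid families had 1 call among 15 tested genes in DNCB relative to Solvent, 6.67% against 14.2% of all genes tested. It was the largest rise of any P450 gene. Cyp4f18 (ENSMUSG00000003484, chromosome 8, 71988482 to 72009626), which inactivates leukotriene B4 in neutrophils, stood at 0.635, 0.0274 and 0.227 FPKM in Solvent and at 52.3, 49.2 and 34.9 in DNCB mice. The scMSC mice had 1.31, 1.08 and 0.812, and the scivMSC mice 0.0993, 2.54 and 0.546. All 3 DNCB values were above every value of the other groups. It rose by 7.06 ± 1.17 in DNCB (adjusted p = 0.00204) and was lower than DNCB by -5.38 ± 1.07 in scMSC (adjusted p = 0.00881) and -5.42 ± 1.07 in scivMSC skin (adjusted p = 0.0148). The scivMSC call was lost without scivMSC replicate 3 (adjusted p = 0.0564), and the other 2 held in every alternative. In DNCB skin it was the most abundant P450 gene, at 19.2% of the summed FPKM.

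Neutrophil markers moved with Cyp4f18. Of 9 tested, 7 rose and 1 fell in DNCB skin, and 7 were lower than DNCB in each MSC group. Over all genes tested, 14.2%, 8.50% and 5.46% were called in these comparisons. The summed level of the list ran from 122 to 210 FPKM in Solvent, 2497 to 3447 in DNCB, 16.8 to 66.2 in scMSC and 35.9 to 180 in scivMSC mice. Ly6g, a defining marker, was listed at 0 in the 9 libraries outside the DNCB group and at 2.67, 4.93 and 1.83 FPKM in DNCB mice. S100a8 and S100a9 of this list are also made by stressed keratinocytes, whose 8 markers all rose in DNCB skin. The part of neutrophils in the Cyp4f18 result was not tested. Cyp4f18 overlaps Zfp961 on the opposite strand, and Cyp7b1 overlaps Gm23686 on its own strand.

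edgeR called no other fatty acid gene against Solvent or DNCB. In DNCB relative to Solvent, DESeq2 called Cyp4a32 and Cyp4f37, and limma called Cyp4f16 and Cyp4f37. DESeq2 also called Cyp4a14 in scMSC skin relative to DNCB and to Solvent. Cyp4f39, the counterpart of the human hydroxylase that makes acylceramides for the water barrier, stood at 12.9 ± 3.9 FPKM in Solvent, 16.7 ± 1.5 in DNCB, 13.3 ± 1.3 in scMSC and 19.4 ± 2.1 in scivMSC skin (DNCB relative to Solvent 0.20 ± 0.19, adjusted p = 0.501). Cyp4b1 stood at 9.22 ± 1.52, 13.2 ± 2.7, 10.7 ± 6.0 and 14.3 ± 4.1 FPKM in the same order (adjusted p = 0.501 in DNCB). Cyp4f17 at 3.21 ± 0.71 and 4.70 ± 0.78 and Cyp4f13 at 3.68 ± 1.11 and 3.34 ± 0.60 FPKM in Solvent and DNCB skin were not called either. Cyp4f16 passed the adjusted p (0.00507) with 0.96 ± 0.19 in DNCB by edgeR and not the fold threshold. Cyp4f16, Cyp4f37, Cyp4a32 and Cyp4a14 were named after their values were seen.

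Among 18 genes of acylceramide and epoxide metabolism, 6 fell and 1 rose in DNCB skin, 4 were higher and 1 lower than DNCB in scMSC skin, and 3 and 1 in scivMSC skin. The background over all genes tested was 14.2%, 8.50% and 5.46% called in the same order. Elovl4, which elongates very long fatty acids, fell from 264 ± 62 to 88.4 ± 10.4 FPKM (-1.76 ± 0.33, adjusted p = 0.00355). The barrier lipoxygenases Aloxe3 (-1.38 ± 0.30, adjusted p = 0.00682) and Alox12b (-1.36 ± 0.34, adjusted p = 0.0136) fell as well. Ephx1, an epoxide hydrolase, fell from 38.7 ± 6.3 to 16.1 ± 2.1 FPKM and was 22.6 ± 7.0 and 22.6 ± 2.4 in the MSC groups, neither called against DNCB. Of the lipid receptors, Ppara fell (-1.49 ± 0.32, adjusted p = 0.00648) and Ppard rose (1.37 ± 0.26, adjusted p = 0.00353).

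A list of P450 electron donors and haem enzymes had 16 tested genes. Its median log2 fold change in DNCB was -0.38, and 1 gene was called there, against 14.2% of all genes tested. Hmox1, a haem oxygenase, rose in DNCB skin from 35.1 ± 17.2 to 94.2 ± 12.8 FPKM (1.26 ± 0.38, adjusted p = 0.0334) and was lower in scivMSC skin (-1.46 ± 0.38, adjusted p = 0.0415). Por, the reductase of all microsomal P450 enzymes, stood at 21.4 ± 1.9 FPKM in Solvent and 32.2 ± 1.9 in DNCB skin (0.41 ± 0.14, adjusted p = 0.0609), and its difference in scMSC relative to DNCB (-0.77 ± 0.14, adjusted p = 0.00675) was under the fold threshold. The orphan Cyp20a1 stood at 3.99 ± 0.67 and 6.49 ± 0.83 FPKM in Solvent and DNCB skin (0.51 ± 0.20, adjusted p = 0.0881). Cyp46a1, a cholesterol hydroxylase best known from brain, stood at 0.397 ± 0.082 and 0.712 ± 0.278 (adjusted p = 0.347).

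Summed over all 104 members, P450 transcripts reached 251 ± 41 FPKM in Solvent, 237 ± 11 in DNCB, 282 ± 130 in scMSC and 430 ± 53 in scivMSC skin, given as a description without a test. The sum of the foreign-compound families was 160 ± 35, 100 ± 13, 196 ± 111 and 318 ± 43 FPKM. The fatty acid families summed to 35.8 ± 5.8, 92.9 ± 9.4, 40.8 ± 8.5 and 51.9 ± 2.9, and the steroid families to 32.9 ± 5.5, 21.7 ± 0.7, 28.0 ± 7.3 and 39.1 ± 7.2. Cyp2e1 and Cyp2b19 led in Solvent skin and Cyp4f18 in DNCB skin. Replicate 1 of scMSC carried 430.5 FPKM in all, against 232.4 and 184.6 in the other 2 scMSC mice.

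**Figure D3:**
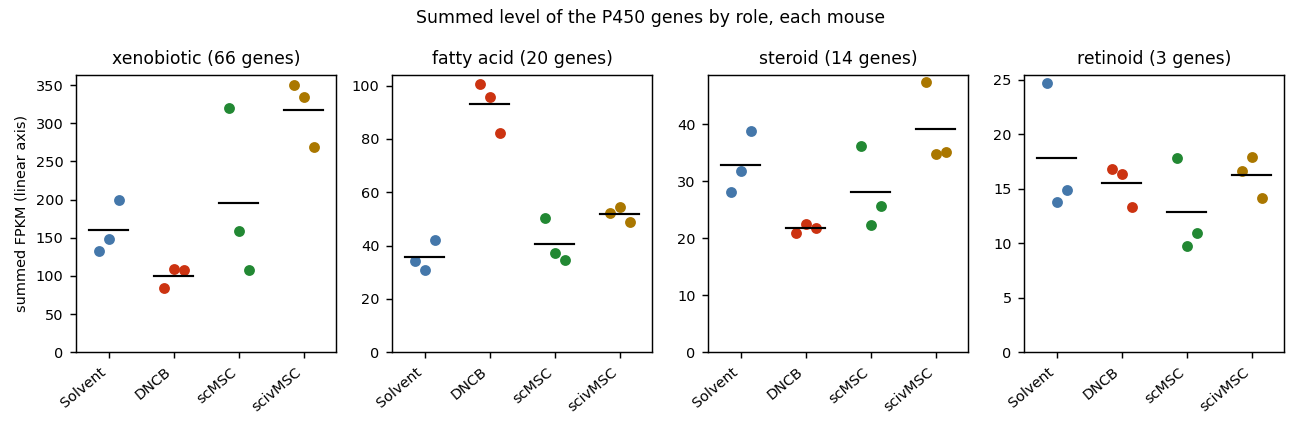
Summed FPKM of the P450 genes of each role in each library on linear axes, with a line at the group mean. The DNCB libraries lie at 84.6 to 108.5 for the foreign-compound group, with scMSC replicate 3 at 107.9, and form the high group for the fatty acid genes at 82.4 to 100.7. Of the mean fatty acid sum, Cyp4f18 alone holds 45.5 of 92.9 FPKM in DNCB and 0.297 of 35.8 in Solvent skin.

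**Figure D4:**
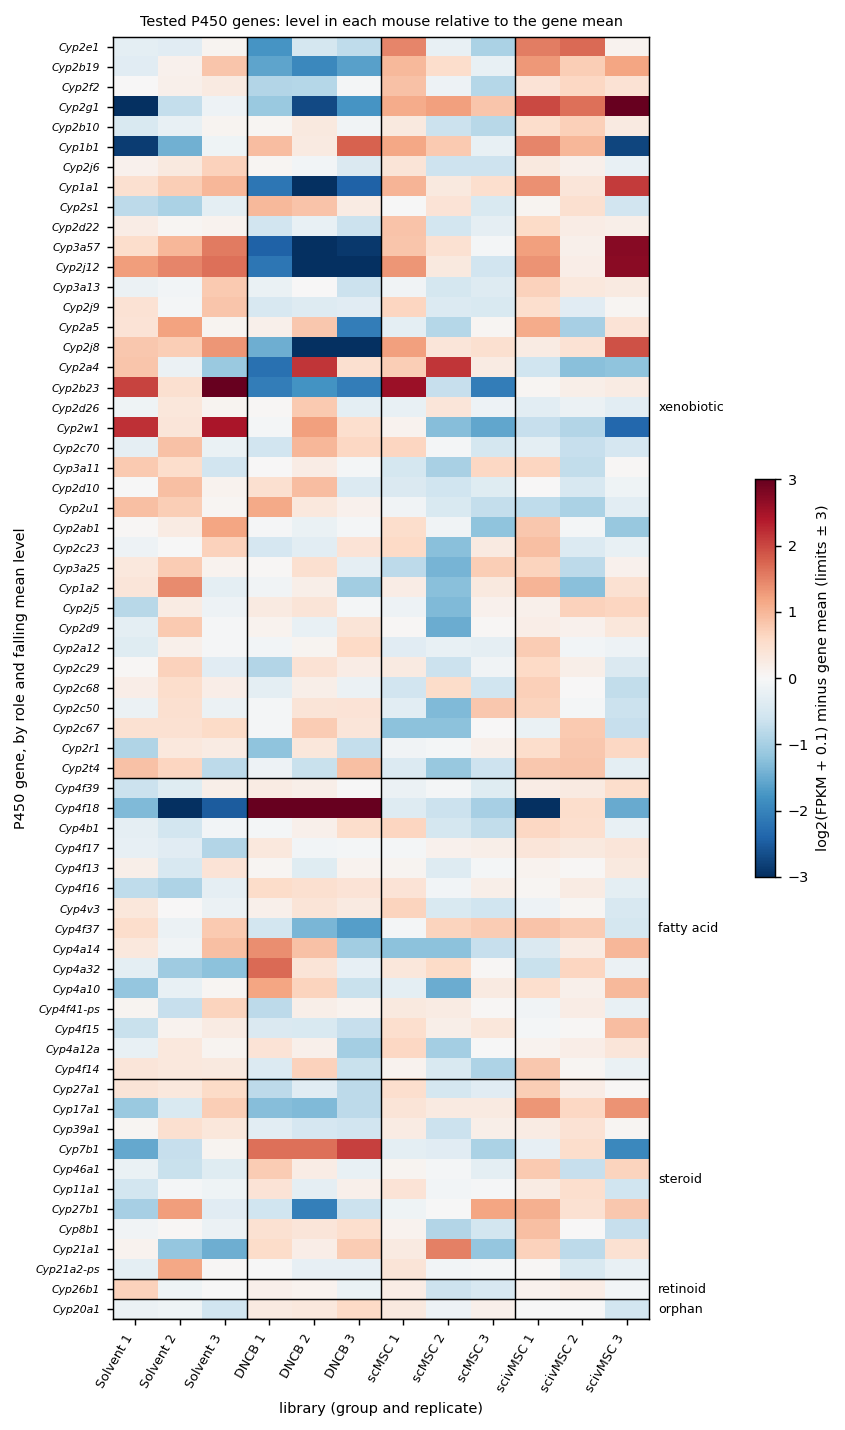
Level of the 64 tested P450 genes in each library as log2(FPKM + 0.1) minus the gene's mean, with colours limited at ± 3 and genes ordered by role and falling mean level. Blue DNCB columns mark Cyp1a1, Cyp3a57, Cyp2j12 and Cyp2j8, red ones Cyp4f18 and Cyp7b1, and most low genes show no group pattern.

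The MSC groups were also set against Solvent skin. In scMSC skin 1 member was called, 1.56% of those tested against a background of 9.32% (5.12% higher, 4.20% lower), and in scivMSC skin 3, 4.69% against 6.85% (3.50% higher, 3.35% lower). Cyp2u1 (ENSMUSG00000027983), a fatty acid hydroxylase, was lower in both. It stood at 0.907, 0.801 and 0.459 FPKM in Solvent and at 1.08, 0.572 and 0.492 in DNCB mice. In scMSC mice it was 0.401, 0.291 and 0.225, and in scivMSC mice 0.216, 0.181 and 0.333. Both MSC groups lay below both other groups. The differences from Solvent were -1.41 ± 0.43 (adjusted p = 0.0431; lost without Solvent replicate 1 or 2, DNCB replicate 2, any scMSC library or scivMSC replicate 1 at 0.0518 to 0.131) and -1.74 ± 0.43 (adjusted p = 0.0244; lost without Solvent replicate 1 or 2 or scivMSC replicate 1 or 2 at 0.0557 to 0.0932). Against DNCB they were -1.196 ± 0.426 and -1.53 ± 0.43 (adjusted p = 0.0980 and 0.0539). DESeq2 called both (0.0341 and 0.00477), and the second was also called without Solvent replicate 3 (0.0444), with library size alone (0.0483) and with counts divided by 4 (0.0496). The first difference from Solvent was lost in 7 of 10 other settings, limma with each pseudocount included (0.0685 to 0.0756), and the second with 6 libraries fitted alone (0.0664) and by limma with a pseudocount of 1, on its fold. Cyp2u1 overlaps 4930534D22Rik on the opposite strand.

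Cyp2w1 (ENSMUSG00000029541), known from colon tumours, was lower in scivMSC than in Solvent skin. It stood at 2.23, 0.554 and 2.68 FPKM in Solvent, 0.388, 1.09 and 0.627 in DNCB, 0.451, 0.111 and 0.0722 in scMSC and 0.217, 0.178 and 0 in scivMSC mice. Solvent was above both MSC groups, and DNCB overlapped Solvent. The difference was -3.94 ± 1.12 (adjusted p = 0.0424), lost without Solvent replicate 1 or 3, any DNCB library, scMSC replicate 2 or scivMSC replicate 1 or 2 (0.0506 to 0.106), without the filter (0.0526) and with 6 libraries fitted alone (0.0985). The scMSC difference was -3.24 ± 1.08 (adjusted p = 0.0614).

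Between the routes, scivMSC relative to scMSC, edgeR called 0 of 64 members, beside a background of 0.00457%. DESeq2 and limma also called 0 of the members. By edgeR 6 of the 64 had an unadjusted p under 0.05, beside 1642 of all 21890 genes tested. Members that were called against DNCB in both groups had differences between the routes of 0.83 ± 0.42 for Cyp1a1, 0.59 ± 0.32 for Cyp2b19, 1.35 ± 0.59 for Cyp3a57 and -0.04 ± 0.91 for Cyp4f18 (log2 scale, adjusted p = 0.708, 0.729, 0.661 and 1.0). The lowest unadjusted p was that of Cyp2b10, 0.00858 (0.82 ± 0.26, adjusted p = 0.571). A p that misses the threshold does not show that the routes gave equal levels.

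The remaining 35 tested members were not called by edgeR in any of the 6 comparisons. At an unadjusted p under 0.05 there were 6 in DNCB relative to Solvent, 4 in scMSC and 5 in scivMSC relative to DNCB. Over all 21890 genes tested the counts were 8116, 5567 and 4973 in the same order. Of all genes, DESeq2 called 17.1%, 11.4% and 8.60%. Across its pseudocounts limma called 9.55% to 16.5%, 6.13% to 9.10% and 4.56% to 6.46%. DESeq2 called 2, 2 and 1 and limma 2, 1 and 0 of the 35 members in these comparisons. Cyp4f37 was among them in each of these that called any, at 0.325 ± 0.134 FPKM in Solvent, 0.0465 ± 0.0619 in DNCB, 0.344 ± 0.123 in scMSC and 0.340 ± 0.193 in scivMSC skin. Their means ran from 0.101 to 6.20 FPKM, 7 of them at 1 FPKM or more. In DNCB relative to Solvent, 22 had a negative and 13 a positive fold change, from -2.93 to 2.46 (Cyp4f16 had the lowest adjusted p). They include all tested genes of Cyp2c (6 of 16 members tested), Cyp2d (4 of 12), Cyp4a (4 of 7) and Cyp2a (3 of 5).

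Libraries held 63877153 to 75134001 estimated counts, and replicates of a group correlated at 0.928 to 0.957 over tested genes. No library was near-identical to another. In simulated data with 200 of 21890 genes changed by 2 on the log2 scale in DNCB relative to Solvent, 56.5% were called, so an uncalled member is not shown to be unchanged. The changed genes were drawn only from those above a minimum mean count, and all genes were given the same spread. The share therefore need not hold for members with low counts.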

How the data were processed

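RNA from dorsal skin was analysed in 12 libraries, 3 for each of 4 groups taken from the sample labels. The authors deposited 2 values per gene and library. FPKM had been scaled to length and depth by the authors, while the deposited estimated counts, written as whole numbers, had not been normalized across libraries. HISAT2 2.0, StringTie 1.3.0, Bowtie 0.12.2 and build mm8 are named in the submitters' processing notes, with no role given, and no aligner or counting settings are given in the sources used here. The gene coordinates of the file are those of GRCm38: all 104 P450 genes overlap their GENCODE M21 position. Multiples of 4 made up 38.9% to 41.2% of low estimated counts, and 4 estimated counts were taken as about 1 fragment, an approximation on which printed fragment numbers rest. The floor of a library was 12 estimated counts, about 3 fragments. Intervals and floors cover counting error only.

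Testing was restricted to genes averaging 0.1 FPKM or more. It used edgeR 4.0.16 (quasi-likelihood F-test; R 4.3.3) on estimated counts with TMM factors (0.887 to 1.06) and 1 model of the 4 groups (common biological coefficient of variation 0.420). Benjamini-Hochberg adjustment ran over all 21890 genes. Standard errors were derived from the F statistic. Fold changes come from the fitted counts, not from ratios of FPKM. Whether libraries of a group came from 1 mouse each is not in the labels, and p-values measure the spread between libraries. A single gene compared alone in 3 against 3 cannot go below an exact two-sided permutation p of 0.1.

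Named members were those called in any of 6 comparisons, the 5 most abundant of each role, and family 26, Cyp1a1, Cyp1a2, Cyp1b1, Cyp24a1 and Cyp27b1. Pathway genes were named where called in a comparison with DNCB, at most 6 per list. Ahr, Arnt, Ahrr, Vdr, Por, Ly6g, Awat1 and Mc5r were named for their roles, outside this rule. The members and lists were chosen with earlier results of these data known. Alternatives were DESeq2 1.42.0, limma 3.58.1 on log2(FPKM + pseudocount) with 0.1, 0.01 or 1, other filters and scaling, counts divided by 4, adjusted p alone, 6 libraries fitted alone, the replicate number as a block, and each library left out. The scripts were tested on simulated counts: with no gene changed, 1 of 21890 was called. Biopython 1.88 aligned the windows, matplotlib 3.10.9 drew the figures, and pandas 2.3.3 under Python 3.11.15 wrote the tables. The study's own blood samples were not analysed here. Values of some genes on the pathway and marker lists are not reported here.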

Additional observations from a re-analysis of the deposited data

How the results depend on the processing

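No P450 result changed sign under any alternative where a call was involved. Of 35 calls of single genes, 13 held in every alternative, 20 were lost when some library was left out and 16 in some other setting. The count for DNCB relative to Solvent (12) stayed within 1.5 times in every alternative, from 9 to 13 with 1 library left out. In scMSC relative to DNCB the count of 10 became 4 to 9 with 1 library left out: 4 without DNCB replicate 2 or scMSC replicate 1, 5 without scMSC replicate 2 and 6 without DNCB replicate 3. In scivMSC relative to DNCB the count of 9 became 15 with DESeq2 and 5 to 10 with 1 library left out, 5 without DNCB replicate 2. For scMSC relative to Solvent the single call became 4 with DESeq2, 2 with each limma pseudocount, with counts divided by 4 and with the adjusted p alone, and 0 with library size alone, without the filter, at a mean of at least 1 FPKM and with 6 libraries fitted alone, and it ran from 0 to 2 with 1 library left out. For scivMSC relative to Solvent the 3 calls became 1 at a mean of at least 1 FPKM, 0 with 6 libraries fitted alone and 1 to 3 with 1 library left out. Of the falls in DNCB, those of Cyp17a1 and Cyp2j9 were lost in 5 other settings each, every limma fit included, and those of Cyp27a1 and Cyp2j8 in 1 each. The cause of these changes was not tested.

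The labels number replicates 1 to 3 in each group. With the replicate block 12 members were called in DNCB relative to Solvent, 6 in scMSC and 7 in scivMSC relative to DNCB, 0 in scMSC and 2 in scivMSC relative to Solvent, and 0 between the routes. The block ended the calls of Cyp2b23, Cyp2g1, Cyp2j8 and Cyp7b1 in scMSC and of Cyp2e1 and Cyp2j8 in scivMSC relative to DNCB, and of Cyp2u1 in scMSC and Cyp2w1 in scivMSC relative to Solvent. Deviations of the 18 same-numbered pairs correlated at -0.210 to 0.149, and 2 of 12 libraries correlated best with their own number, so the numbers were not taken to pair the mice.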
